A study of Homo sapiens with 2 samples.

Results

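The regions described here are the intergenic peaks of methylated ERG (mERG) in VCaP cells. They were taken as the peaks of the deposited list whose location class is intergenic, which gave 1361 of 18070 peaks (7.53%, Wilson 95% interval 7.16 to 7.93%). Among peaks with a score of at least 50, the intergenic share was 4.17% (interval 3.62 to 4.79%). VCaP, an established line from prostate cancer with a fusion of TMPRSS2 and ERG, was used without treatment. The study performed ChIP-seq on these cells with a rabbit polyclonal antibody against ERG mono-methylated at a lysine, and sequenced 75 bp single-end reads from chromatin fragments of about 200 bp. There was 1 mERG ChIP library and 1 control library, whose labels name both input and IgG, so no value has a replicate. The peaks are regions of 1 experiment and not replicates of a condition, and the intervals given cover counting error only.

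ERG is a transcription factor of the ETS family, which binds DNA at sites built around the word GGAA, and the TMPRSS2-ERG fusion places it under an androgen-regulated promoter in prostate cancer. Transcription factors often bind far from gene starts, at enhancers that lie between genes or inside introns. What counts as intergenic depends on the gene models used, because a region outside the transcripts of 1 catalogue can lie within a longer transcript of another.

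The DNA under some of the strongest intergenic peaks is given first, because these peaks differ in what surrounds them. The windows below are 200 bp of the hg19 plus strand around the peak centre, with GGAA and its reverse complement TTCC in capitals, and belong to the intergenic peaks ranked 7, 8 and 10 by score. The AP2S1 window is chr19:47374098-47374297, in an intron of the GENCODE gene ARHGAP35. The REXO2 window is chr11:114326695-114326894, outside every GENCODE gene. The GTF2IRD1P1 window is chr7:66317821-66318020, in a GENCODE gene that is neither protein-coding nor lncRNA.
AP2S1 peak: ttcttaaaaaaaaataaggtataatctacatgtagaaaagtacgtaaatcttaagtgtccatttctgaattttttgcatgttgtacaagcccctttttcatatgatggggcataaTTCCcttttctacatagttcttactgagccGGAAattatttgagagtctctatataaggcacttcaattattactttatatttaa
REXO2 peak: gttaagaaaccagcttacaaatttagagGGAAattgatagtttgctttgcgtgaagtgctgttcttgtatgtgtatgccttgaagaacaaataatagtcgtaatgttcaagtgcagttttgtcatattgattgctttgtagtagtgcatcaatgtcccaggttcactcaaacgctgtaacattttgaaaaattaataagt
GTF2IRD1P1 peak: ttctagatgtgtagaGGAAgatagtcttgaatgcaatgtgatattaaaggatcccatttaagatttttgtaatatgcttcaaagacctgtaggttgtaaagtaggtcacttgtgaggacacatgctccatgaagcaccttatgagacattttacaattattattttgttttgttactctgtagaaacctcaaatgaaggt
These windows hold 2, 1 and 1 copies of GGAA on either strand, and their GC content is 29.5, 34.5 and 34.0%.

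The next windows begin with strong intergenic peaks with the ETS core motif within 100 bp of the centre. The word searched on both strands was CCGGAAGT, in which 1 letter outside GGAA could differ. The AP2S1 peak above is among them, with CCGGAAAT at position 144 of its window. A peak at MAPK8IP1P2, a pseudogene, (chr17:43641593-43641792, score 80.8, in an L1MEf repeat) has GCGGAAGT on the minus strand from position 107. The last window is the strongest intergenic peak in a satellite of the GAATG family, at GYG2P1 (chrY:13687573-13687772, score 59.3), and was chosen after its values were seen.
MAPK8IP1P2 peak with the ETS core motif: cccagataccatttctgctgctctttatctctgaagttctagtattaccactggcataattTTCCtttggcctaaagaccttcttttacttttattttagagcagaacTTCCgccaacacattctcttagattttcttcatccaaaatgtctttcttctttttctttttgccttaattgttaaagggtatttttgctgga
GYG2P1 satellite peak: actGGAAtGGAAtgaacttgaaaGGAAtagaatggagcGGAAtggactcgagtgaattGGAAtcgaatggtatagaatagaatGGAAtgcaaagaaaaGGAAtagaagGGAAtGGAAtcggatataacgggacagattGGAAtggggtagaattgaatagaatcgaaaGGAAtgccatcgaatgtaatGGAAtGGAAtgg
The satellite window carries 13 copies of GGAA in 200 bp, some of them in GGAAT units in tandem.

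The intergenic peaks were weaker and narrower than the rest of the list. The score that the authors' peak caller gave to each peak, whose values have the form of a logarithm of the p-value although the list does not state its scale, had a median of 37.8 (order-statistic 95% interval 37.6 to 38.5) at intergenic peaks and 41.2 at all other peaks. A score of at least 50 was reached by 188 intergenic peaks (13.8%, interval 12.1 to 15.8%), against 25% of all peaks and 26.2% of intronic peaks. Scores above 100 were found at 13 intergenic peaks, out of 403 in the whole list. The lowest score in the list was 33.01, at intergenic and at other peaks alike. The median width was 346 bp (interval 337 to 361 bp) at intergenic peaks and 404 bp at the others. Peaks of at least 1 kb numbered 60 (4.41%, interval 3.44 to 5.63%), against 5.77% of all peaks. The lower score was seen chromosome by chromosome, with a lower intergenic median on 21 of the 21 chromosomes that hold at least 10 peaks of both kinds, and the lower width on 19 of these 21. The width difference did not hold among strong peaks, since intergenic peaks with a score of at least 50 had a median width of 628.5 bp and other peaks of that score 615 bp.

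Many of the intergenic peaks lay inside genes once a wider gene catalogue was used. At the peak centre, 418 of the 1361 (30.7%, interval 28.3 to 33.2%) were inside a protein-coding gene of GENCODE, 276 (20.3%) inside a lncRNA gene and 28 inside another gene. Of all peaks, 92.8% were inside a protein-coding gene and 2.95% inside a lncRNA gene. Protein-coding genes made up 45.6% of the bases of chromosomes 1 to 22, X and Y, and lncRNA genes 15.2%. The label intergenic therefore holds for the annotation of the deposited list, and 639 peaks (47.0%, interval 44.3 to 49.6%) lay outside every GENCODE gene, against 3.98% of all peaks. Of the 722 peaks inside a gene, 630 were in introns and 92 in exons. Their host gene had another symbol than the gene named by the list for 483 peaks and the same symbol for 239. On chromosomes 1 to 22, X and Y, the sequence outside GENCODE genes made up 38.1% of the bases and held 0.630 peaks per Mb, counting all peaks of the list, whereas lncRNA genes held 1.23 per Mb and protein-coding genes 12.9 per Mb.

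**Figure D1:**
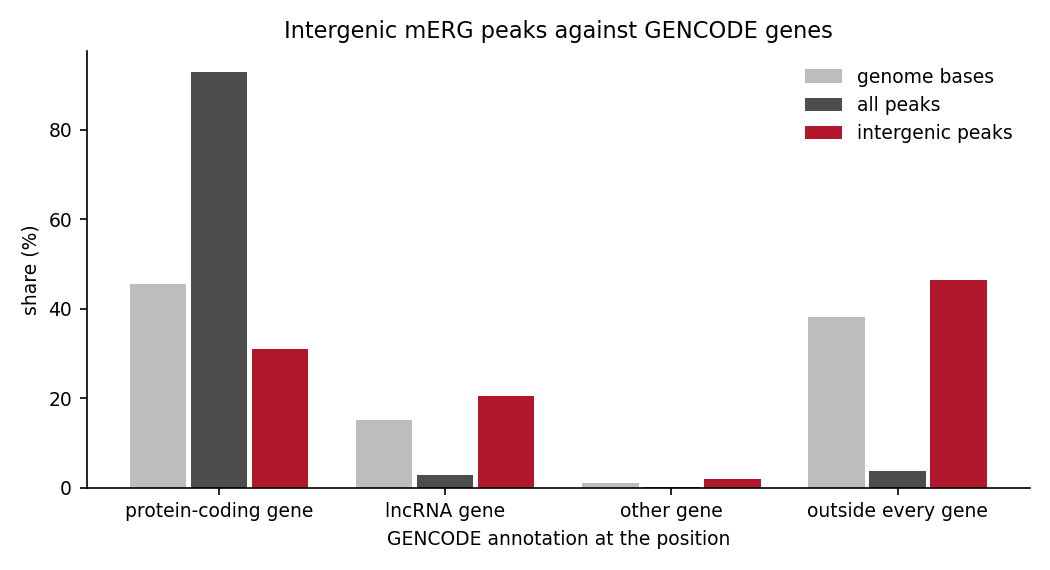
Share of genome bases, of all mERG peaks and of the intergenic mERG peaks (y axis, %) by the GENCODE annotation at the base or peak centre (x axis), for chromosomes 1 to 22, X and Y. Protein-coding genes hold 31.0% of the intergenic peaks, and 46.5% lie outside every gene.

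The peaks inside GENCODE genes were stronger, wider and closer together than those outside. The median score was 39.0 (interval 38.4 to 39.7) inside and 36.98 (interval 36.5 to 37.6) outside. A score of at least 50 was reached by 18.1% of the peaks inside and 8.92% of those outside. The median width was 383.5 bp inside and 321 bp outside, and both kinds were below the intronic median of 404 bp. Among the 100 strongest intergenic peaks, 78 lay inside a GENCODE gene.

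**Figure D2:**
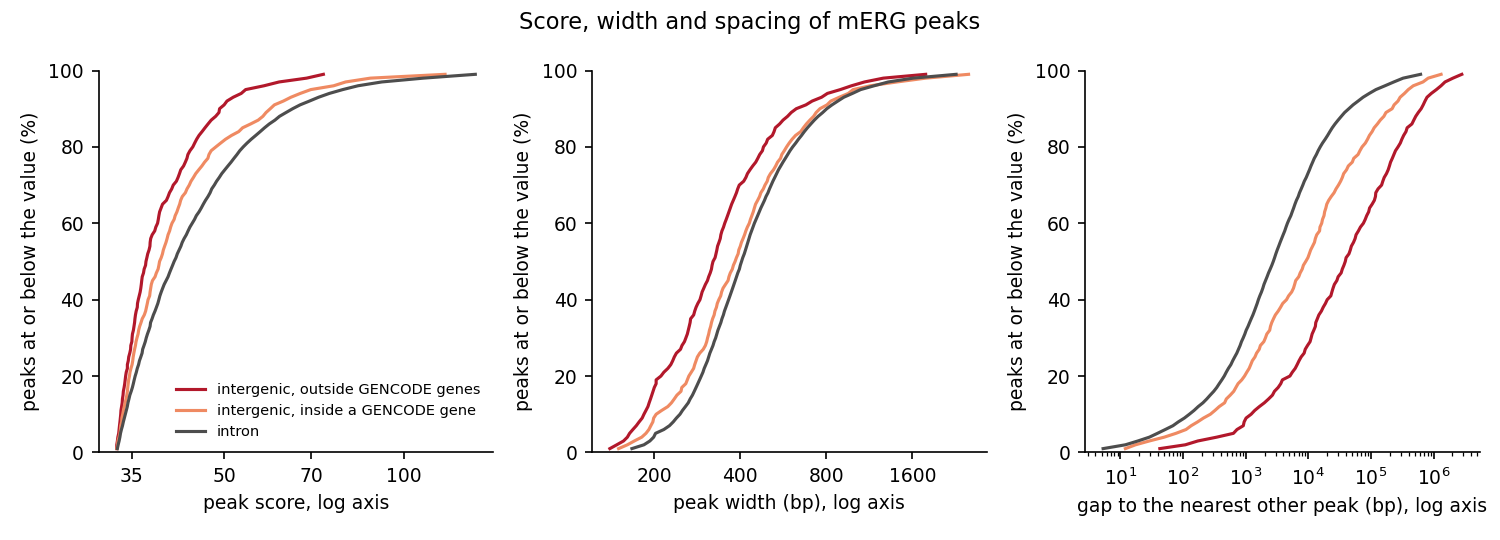
Cumulative share of peaks (y axis, %) by score, width in bp and gap to the nearest other peak in bp (x axes, log scale) for intergenic peaks outside and inside GENCODE genes and for intronic peaks. In all 3 panels the peaks inside GENCODE genes lie between the other groups at the median.

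Several genes with the most intergenic peaks held them upstream of the TSS used by the list and within the gene as GENCODE draws it. ZNF609, a zinc finger gene, had 14 intergenic peaks out of 44, all upstream of the listed TSS and all inside the GENCODE gene of that name. ARHGAP35 had 8 out of 16, and R3HDM2 had 8 out of 9, all inside the GENCODE gene of the same symbol.

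Other intergenic peaks lay inside a gene that the list did not name for them. These host genes, and OGFRP1, were picked out after the values were seen. All 8 peaks named for ACPP, the prostatic acid phosphatase gene, were inside CPNE4, at 112 to 138 kb upstream of the listed TSS. The 8 peaks named for the pseudogene OGFRP1 were inside TCF20, a transcriptional coregulator gene. For TMCC3 and MIR492, neighbours on chromosome 12, the list named 9 intergenic peaks each, and 0 of them were inside a GENCODE gene. In all, the intergenic peaks named 891 genes, 677 of them by 1 peak and 29 by at least 5, and 509 genes were named by intergenic peaks only.

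The strongest intergenic peaks were concentrated at a few non-coding loci. Of the 10 highest scores, 6 were on chromosome 8, which held 136 of the 1361 intergenic peaks and 1594 of the 18070 peaks of the list. The median score on chromosome 8 was 41.85 at intergenic and 42.84 at other peaks, against 37.78 and 41.17 over the whole list. Higher scores on this chromosome were therefore not particular to intergenic peaks. At MIR1204, a microRNA gene of the PVT1 locus, 13 intergenic peaks spanned 27.4 kb (128822264 to 128849651), all inside the lncRNA gene PVT1, with scores from 34.7 to 295. At MIR30D, 12 intergenic peaks had a median score of 81.6 and a highest score of 225, and all lay inside a lncRNA gene of GENCODE. The cluster they belong to (chromosome 8, 135810289 to 135840948) held 16 peaks, 14 of them intergenic, which covered 81.9% of its 30.7 kb. At MAPK8IP1P2, a pseudogene on chromosome 17, the peak with a score of 281 was 6417 bp wide. The other peaks among the 10 highest were at AP2S1 (136), REXO2 (122), OSGIN2 (120.3) and GTF2IRD1P1 (106), of which only REXO2 was outside every GENCODE gene.

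The 5 widest intergenic peaks had scores from 38.5 to 281. The widest, at LINC00676 on chromosome 13 (110213903 to 110222782), was 8880 bp wide with a score of 38.5. A peak at PMVK, the phosphomevalonate kinase gene of the mevalonate pathway, was 7003 bp wide with a score of 42.3, and another one beside it had a score of 104. The remaining wide peaks were at MAPK8IP1P2 (6417 bp, score 281), which also ranked 2 by score, at COL4A2-AS1 (5564 bp, score 73.0) and at MIR4436A (5139 bp, score 53.4, in a GAATG satellite).

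The intergenic peaks stood more alone than the rest. Another peak lay within 5 kb of 426 intergenic peaks (31.3%, interval 28.9 to 33.8%), against 58.5% of all peaks and 61.2% of intronic peaks. The median gap to the nearest other peak was 16946 bp for intergenic peaks and 2808 bp for the others. The share was lower at intergenic peaks on 19 of the 21 chromosomes compared. Peaks with a neighbour within 5 kb had a median score of 41.7 and a median width of 477.5 bp, and peaks without had 36.9 and 313 bp. Only 20.03% of the peaks outside GENCODE genes had such a neighbour, and 41.3% of those inside. Joining peaks with a gap of up to 5 kb gave 1105 clusters with an intergenic peak, of which 48 also held peaks of other classes. The 20 clusters with at least 4 intergenic peaks held 129 of them, and without these clusters the share with a neighbour was 24.1%, a comparison chosen after seeing the data.

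Most intergenic peaks lay upstream of the nearest TSS. The signed distance, negative upstream, had a median of -8159 bp, and 480 peaks (35.3%, interval 32.8 to 37.8%) were downstream, whereas 78.6% of the other peaks were. By the rule, a peak within the body of a listed gene, which is downstream of that gene's TSS, is not among the intergenic peaks. The absolute distance had a median of 30360 bp (interval 27540 to 33014 bp), and 27594.5 bp at the other peaks, so the interval reached below the value of the others. Among peaks with a score of at least 50 the order turned, with 20617.5 bp at intergenic peaks (interval 17088 to 24912 bp) and 26460 bp at the others. Distances of over 500 kb were rare, since 97.3% of intergenic peaks lay within that distance. The farthest were 3 alpha satellite peaks named for ZNF733P on chromosome 7, at 1648154, 1611054 and 1587536 bp downstream, followed by MIR4436A at 1330992 bp downstream and LINC01099 at -1323761 bp.

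Around protein-coding genes, the peaks outside every GENCODE gene were more frequent past gene ends than before gene starts. Within 5 kb, 126 of the 639 peaks lay past an end and 50 before a start. Between 5 and 10 kb the counts were 45 and 38, and between 10 and 15 kb they were 24 and 27. Farther out the balance turned in most bins, with 13 past an end and 29 before a start between 20 and 25 kb, and 6 and 15 between 45 and 50 kb. The gene-free sequence within 10 kb past an end only held 1.95 peaks per Mb (139 peaks, exact Poisson 95% interval 1.64 to 2.30), that within 10 kb before a start only held 0.751 per Mb (56 peaks, interval 0.568 to 0.976), and that beyond both held 0.433 per Mb (400 peaks). The list keeps promoter and transcription termination sites as classes of their own, so peaks next to a listed start or end are not among these.

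Repeats were more frequent at intergenic peaks. The centre of 689 intergenic peaks (50.6%, interval 48.0 to 53.3%) was annotated as a repeat, against 42.4% of all peaks and 43.95% of intronic peaks. Among peaks with a score of at least 50, the share was 46.3% at intergenic peaks (interval 39.3 to 53.4%) and 41.6% at the others, so the interval covered the value of the others. Introns are the closest comparison, since in the list no peak of the exon, UTR, promoter or termination classes carries a repeat. LINE and SINE elements were about as frequent as in introns, at 18.0 and 15.3% of intergenic peaks and 19.03 and 14.9% of intronic peaks. LTR elements, the remains of retroviruses, were at the centre of 115 intergenic peaks (8.45%, interval 7.09 to 10.1%) and of 3.90% of intronic peaks. Within them the ERV1 family held 41 intergenic peaks (3.01%, interval 2.23 to 4.06%), against 0.916% of intronic peaks. The share of each repeat class in intergenic sequence away from peaks was not computed. Whether the repeat shares at the peaks, those of satellites included, differ from that sequence was therefore not tested.

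Satellites, the tandem repeats of centromeres and heterochromatin, held 33 intergenic peaks (2.42%, interval 1.73 to 3.39%) and 4 of the 16709 other peaks. They comprised 19 alpha satellite peaks, with a median score of 35.9, and 12 peaks in the GAATG family, counting its reverse complement CATTC, with a median score of 43.2. The remaining 2 were in other satellites. Of the satellite peaks, 31 were outside every GENCODE gene and 7 were on chromosome Y. GGAA is part of the GAATG repeat, and 11 of the 12 windows held GGAAT units in tandem, compared with 3 of the other 1349 intergenic windows. Over all intergenic peaks the tandem was as frequent 2 kb away, in 28 of 2721 flanking windows (1.03%), as at the centre, in 14 of 1361 (1.03%). Without the satellite peaks it was in 3 of 1328 centres and 4 of 2655 flanks, so most of these windows belonged to satellite peaks. The median number of GGAA copies per window was 17 in the GAATG satellites and 2 in the other intergenic windows.

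The sequence around the peak centres was compared with windows 2 kb away on both sides. The ETS core motif was present in 33 intergenic windows (2.42%, interval 1.73 to 3.39%), in 2.94% of their flanking windows and in 2.63% of the windows of the other peaks, values that overlap in their intervals. These counts allow 1 letter to differ. The exact word CCGGAAGT was in 0 of 1361 intergenic windows, 1 of 2721 flanks and 6 of 16709 windows of the other peaks. Over whole peaks, which were narrower at intergenic peaks, the ETS core motif was in 5.07% of intergenic peaks (interval 4.03 to 6.37%) and in 6.52% of the others. GGAA alone was found in 82.9% of intergenic windows (interval 80.8 to 84.8%) and 81.0% of their flanks (interval 79.5 to 82.4%). Inside GENCODE genes it was in 82.96% of intergenic windows (interval 80.05 to 85.5%) and 79.02% of flanks (interval 76.8 to 81.04%), and outside genes in 82.8 and 83.2%. At the other peaks it was in 83.8% of windows (interval 83.2 to 84.4%) and 79.3% of flanks (interval 78.9 to 79.8%), so the excess at the centre that the other peaks showed was not seen at intergenic peaks outside genes. The doubled word GGAAGGAA, whose copies also count as GGAA, was in 1.84% of intergenic windows and 1.91% of flanks. Words of other factors active in prostate cells were about as frequent in intergenic windows as in their flanks. TGANTCA, the word of AP-1, was in 6.17% of windows and 5.81% of flanks, and AGAACA, part of the androgen receptor element, in 15.7 and 15.3%. TGTTTAC, a FOXA word, was in 2.65% of intergenic windows (interval 1.92 to 3.64%), 2.76% of flanks and 3.76% of the windows of the other peaks. The median GC content was 39.5% at intergenic centres, 41.5% in their flanks and 38.0% at the centres of the other peaks.

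The share of intergenic peaks differed between chromosomes, with a median of 7.74%. It was 4.07% on chromosome 20 (interval 2.93 to 5.64%), and the intervals of chromosomes 1, 3 and 17 also lay below the median. It was 14.0% on chromosome 22 (interval 9.70 to 19.9%), and the intervals of chromosomes 12 and 14 also lay above the median. Chromosome 19 had the highest share of the autosomes, with 54 intergenic peaks out of 192 (28.1%, interval 22.2 to 34.9%), of which 46 were inside GENCODE genes, among them those named for ARHGAP35. Chromosome Y had 9 intergenic peaks out of 10, all centred on repeats. The number of intergenic peaks was highest on chromosome 8 (136 of 1594 peaks), followed by chromosome 12 (121 of 1287) and chromosome 7 (106 of 1344), and chromosome 8 also held the most peaks of all classes together. Per Mb of gene-free sequence, the peaks outside genes had a median density of 0.524 over the chromosomes, and the density was 1.71 on chromosome 21, 1.56 on chromosome 12, 0.0373 on chromosome X and 0 on chromosome 16. The 70 such peaks on chromosome 12 were not spread evenly, since 9 named for TMCC3 and 9 named for MIR492 lay between 95048455 and 95225993. Chromosomes X and 16 held 30 and 26 peaks of all classes, so their low values were not particular to intergenic peaks.

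Non-coding genes were named by 420 intergenic peaks (30.9%, interval 28.5 to 33.4%), against 14.6% of all peaks. Pseudogenes contributed 129 of these peaks (9.48%), compared with 1.45% of the other peaks. Among the 20 long non-coding RNA genes of the list used here, 2 were named by an intergenic peak and 5 by any peak. Of all genes of type ncRNA named by any peak, 24.7% were named by an intergenic peak. PVT1 had 7 such peaks with a highest score of 63.1, and CCAT1 had 1 with a score of 34.4, which lay inside PCAT1.

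The lists of coding genes are given beside the same counts over all genes. Intergenic peaks named 641 protein-coding genes, which is 3.18% of the number of protein-coding symbols in GENCODE and 15.6% of the protein-coding genes named by any peak. These lists are small and were chosen with earlier results known, and no difference from that background was tested. Of 26 genes of the androgen and prostate lineage list, 7 were named by an intergenic peak and 10 by any peak. Besides ACPP (highest score 69.98), these included SLC45A3, a prostate-restricted transporter gene, with 1 peak 27.3 kb upstream (chromosome 1, 205676710 to 205677152, score 58.6). TMPRSS2, the androgen-regulated protease gene that forms the 5′ part of the fusion, had 1 peak 33.5 kb upstream (chromosome 21, 42913310 to 42913790, score 55.3), outside GENCODE genes and in an L1 repeat. NCOA3, a nuclear receptor coactivator, had 1 peak 14.8 kb upstream with a score of 52.1. FOXA1, a pioneer factor of the androgen receptor, had 7 intergenic peaks out of 8, at 79.05 to 205.9 kb upstream, with a highest score of 45.2 and all inside TTC6, and it was added after its values were seen.

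Of the 27 ETS family genes, 5 were named by an intergenic peak and 7 by any peak. SPDEF, an ETS factor of prostate epithelium, had 2 such peaks, the stronger 29.1 kb upstream with a score of 53.5. ELK3 (43.2), GABPA (36.4), ETV6 (35.4) and ERG itself (33.02) had 1 each, and the ERG peak was 14.3 kb upstream of the listed TSS. The score of the ERG peak was close to 33.01, the lowest score in the list. Of 27 Polycomb genes, 2 were named by an intergenic peak and 12 by any peak, with PHC2 at 40.7. Of 26 oncogenes and tumour suppressors, 1 was named by an intergenic peak and 8 by any peak. Of 42 developmental transcription factors, 2 were named by an intergenic peak, TBX3 (38.0) and KLF4 (33.8), and 6 by any peak. Of the 10 genes the study examined, 0 were named by an intergenic peak and 3 by any peak.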

How the data were processed

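ChIP-seq of VCaP cells gave 1 mERG ChIP library and 1 control. The authors deposited 1 list of MACS peaks on hg19, annotated with HOMER, with a score for each peak that is not normalized to depth. The form of the values is that of a MACS score on a scale of the logarithm of the p-value, which was inferred and is not stated in the list. The submitters' processing notes also name Bowtie2 and Picard, and versions and thresholds are not given in the sources used here. Read depth is unknown, so no depth per sample is given. Members and gene lists were chosen with earlier results of these data known. Shares have Wilson, medians order-statistic and densities exact Poisson 95% intervals, and no test was run, since there are no replicates. Genes and sequence came from GENCODE release 44 lifted to GRCh37, the assembly of hg19, and its genome, and a peak was placed by its centre. A protein-coding gene took precedence over a lncRNA gene. Motif windows were 200 bp. The 11 peaks of the list with no annotation count among the other peaks.

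Named genes were those at the 10 highest scores, the 10 with the most intergenic peaks, the 5 widest and the 5 farthest from a TSS, and up to 4 genes of each list with the highest scores, a choice from which the text gives examples. ERG, FOXA1, OGFRP1, the GENCODE host genes and the satellite peaks were added after their values were seen. Sequences were taken from the 4 strongest peaks on different chromosomes and the 3 strongest with the ETS core motif, leaving out chromosome 8, and some of the genes and sequences these rules take are not reported here. Alternatives were the stronger 50% of peaks, a minimum score of 50, fewer chromosomes, 1 peak per 5 kb cluster, intronic peaks as comparison, members outside GENCODE genes, whole peaks or GGAA alone for the motif, and gaps of 1 and 20 kb. Added after seeing the data were the lists without satellites and unplaced contigs, without clusters of at least 4 intergenic peaks, and, for the GENCODE genes, the score, chromosome and cluster settings, any base of the peak, and protein-coding genes only. The intervals, motif search and placement were tested on simulated data. Tables were made in pandas 2.3.3 and NumPy 2.4.6 under Python 3.11.15, intervals with SciPy 1.17.1, sequence reading with pysam 0.24.0 and plots with Matplotlib 3.10.9.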

Additional observations from a re-analysis of the deposited data

How the results depend on the processing

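No paired analysis was possible because there was 1 ChIP library and no replicate, and read depth is unknown, so neither the spread between experiments nor the peaks missed can be given. Of the alternative settings, 37 left a value within its counting interval, 22 moved it and 3 reversed a difference. The 37 include the settings with intronic peaks as comparison, in which the intergenic value is the same by construction and only the difference could reverse. Of further settings chosen after seeing the data, 14 left the value within its interval and 7 moved it. The cause of these shifts was not tested. Among the stronger 50% of peaks, the intergenic share was 5.38%, the median width 469.5 bp (others 490 bp), the absolute TSS distance 27265.5 bp (others 26960 bp) and the share inside GENCODE genes 59.5%. At a score of at least 50, the intergenic share was 4.17%, the repeat share 46.3% (others 41.6%), the non-coding share 37.2% (others 12.0%), the share with a neighbour 37.2% (others 47.9%) and the share inside GENCODE genes 69.7%. There the width of 628.5 bp was above the 615 bp of the others, and the TSS distance of 20617.5 bp below their 26460 bp. With 1 peak per cluster, the intergenic share was 10.2%, the width 328 bp, the TSS distance 34241.5 bp and the share inside GENCODE genes 48.2%, and the ETS core motif was in 2.51% of intergenic and 2.48% of other peaks, a reversal. Without chromosomes 8, 17 and 20, the width was 330 bp and the share with a neighbour 27.7%. Outside GENCODE genes, the median score was 36.98, the width 321 bp, the TSS distance 41342 bp, the downstream share 38.8%, the repeat share 54.3% and the share with a neighbour 20.03%. By construction, the ETS core motif was in 5.07% of whole peaks (others 6.52%) and GGAA in 82.9% of windows, and the share with a neighbour was 14.8% at 1 kb and 53.3% at 20 kb. Chosen after seeing the data, protein-coding genes alone held 30.7%, and without the clusters of at least 4 intergenic peaks the intergenic share was 6.87%, the share with a neighbour 24.1% and the share inside GENCODE genes 49.5%.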
